A study of Mus musculus with 3 samples.

Results

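ATAC-seq peaks of mouse islets 1 week after the loss of Taf4 were set against those of wild type (WT) islets, at promoters and gene by gene for the regions away from promoters. All peaks of both lists on chromosomes 1 to 19 were taken, 59626 from the WT library and 138129 from the library of Taf4 KO mice at 1 week, or 197755 of the 362983 peaks that the 3 lists of the series hold. Each group was 1 library of dissociated cells from isolated Langerhans islets of mice whose strain the labels spell C5LBl6. According to the study's methods, adult Taf4 KO mice carried floxed Taf4 alleles with the Ins1::Cre-ERT2 transgene and received Tamoxifen on consecutive days, while its controls carried the same transgene with intact Taf4 and were injected in the same way. The labels of the WT library give neither a transgene nor an injection nor a time, and the number of animals behind each library was not found in the sources used here. Neither group was replicated. No test between conditions was therefore run, and each difference given here is one between 2 libraries.

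TFIID is the general factor that recognises core promoters and places RNA polymerase II at the start of a gene. It is built from the TATA-binding protein and a set of TAF subunits, of which TAF4 is a scaffold of the complex, and TAF4B is its paralogue. Beta cells, the most numerous cells of mouse islets, make insulin under factors such as Pdx1, Nkx6-1, Mafa and Neurod1. The islet also holds alpha cells, which make glucagon, and delta cells, which make somatostatin. The Ins1 driver acts in beta cells, and staining in the study found Taf4 still present in glucagon-expressing cells of the knockout islets. In bulk tissue, fewer cells of a type and less accessible chromatin per cell cannot be told apart.

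ATAC-seq marks open chromatin by the sites at which a transposase inserts sequencing adapters. The authors' peak caller gave each peak a fold over the local background and a -log10 q, both averaged over the peak, and these are values within a list. Strength was therefore compared as a rank: the percentile of the -log10 q within the list or, for genes with a promoter peak in both lists, the percentile among those genes. A peak belonged to a promoter if it touched the stretch between 1000 bp before and 100 bp after a start of a protein-coding gene, and every other peak was called distal. Peaks were counted as shared from 1 bp of overlap. The libraries differed in depth, since the background read level recovered from the lists was 3.66 reads in WT and 6.45 reads at 1 week, 1.77 times as much. The 1 week list had 2.32 times as many peaks, with a median fold of 2.41 against 3.18 in WT.

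Some WT sites that the comparisons turn on are printed here, with the letters of a motif in capitals and positions on mm9. Distal peaks with letters of CTCF, the factor that anchors chromatin loops, were less often kept than like peaks. The first and the second CTCF site lay in intergenic WT peaks that no 1 week peak touched, and the third in an intergenic WT peak that was overlapped.
Eif4g3, chr4:137524248-137524319, plus strand: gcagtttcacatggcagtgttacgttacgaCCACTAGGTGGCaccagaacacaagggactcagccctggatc
Eif4b, chr15:101896223-101896294, minus strand: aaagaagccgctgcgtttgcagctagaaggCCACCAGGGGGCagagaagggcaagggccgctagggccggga
Stard10, chr7:108459274-108459345, plus strand: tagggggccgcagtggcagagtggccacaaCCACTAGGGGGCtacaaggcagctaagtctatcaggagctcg
A strong intergenic WT peak whose nearest start is that of Xylt1, also without a 1 week peak, holds a pair of AP-1 sites, the letters bound by Fos and Jun dimers.
Xylt1, chr7:124234549-124234615, plus strand: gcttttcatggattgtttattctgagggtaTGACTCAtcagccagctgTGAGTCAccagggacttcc
Peaks with HNF1, homeodomain and FOXA letters were more often kept than like distal peaks. The letters TAATTA are bound by homeodomain factors such as Pdx1 and Nkx6-1, and the FOXA site by Foxa1 and Foxa2. These 4 sites lay in WT peaks that a 1 week peak overlapped.
Psd3 intron, chr8:70540185-70540245, HNF1: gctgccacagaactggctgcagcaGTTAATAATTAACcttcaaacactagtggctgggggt
Prlr intron, chr15:10155660-10155720, HNF1: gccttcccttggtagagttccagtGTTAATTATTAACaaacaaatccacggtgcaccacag
Pxmp3, chr3:5860450-5860515, homeodomain: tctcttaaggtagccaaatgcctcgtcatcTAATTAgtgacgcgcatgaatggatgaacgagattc
Gata3, chr2:9542395-9542461, FOXA, minus strand: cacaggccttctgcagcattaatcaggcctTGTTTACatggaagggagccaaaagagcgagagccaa
The promoters of Slc2a2, the glucose transporter of beta cells, and Gcg, the glucagon gene, had a peak in 1 list only, WT for Slc2a2 and 1 week for Gcg. The 120 bases before their start are shown, with the E-box letters CAGATG, bound by Neurod1 among others, in capitals for Gcg. None of the 14 motifs searched was present in the Slc2a2 stretch.
Slc2a2, chr3:28596705-28596824, plus strand: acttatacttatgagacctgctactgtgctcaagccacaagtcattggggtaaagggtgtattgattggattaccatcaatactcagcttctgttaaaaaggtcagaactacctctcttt
Gcg, chr2:62321708-62321827, minus strand: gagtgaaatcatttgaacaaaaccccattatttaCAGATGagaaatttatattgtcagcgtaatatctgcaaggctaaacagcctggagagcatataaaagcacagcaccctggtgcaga

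Islet identity of both libraries was checked first. Promoter peaks of Ins1, Ins2, Iapp, Pdx1, Nkx6-1, Mafa, Neurod1, Pax6 and Isl1 were present in both lists. Of the lists of other cell types, acinar genes had a promoter peak at 2 of 25 members in either library, duct genes at 8 of 14 in either, and endothelial genes at 5 of 16 in WT and 6 at 1 week. Stellate and fibroblast genes went from 2 to 6 of 15 members, with Col3a1, Dcn, Lum and Vim called at 1 week alone, where like genes, described below, gave 1.40. Col3a1 and Lum were absent from all 4 alternatives, in which the list had 2, 0, 4 and 4 members called at 1 week against 1, 0, 2 and 2 in WT. Immune genes went from 0 to 2 of 19, the added genes being Ptprc and Emr1, where like genes gave 1.22, and both were absent from all 4 alternatives. The T and B cell markers of that list had no promoter peak in either library. Schwann and neural genes went from 4 to 2 of 9. The part of such cells in the results below was not tested.

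The annotation names Taf4 as Taf4a (ENSMUSG00000039117), a minus strand gene of chromosome 2. Its promoter peak ran from 179711067 to 179711963 in WT, and its -log10 q of 8.53 ranked at percentile 76.2 of the list. At 1 week a peak from 179711136 to 179711622 had 1.32, which ranked at percentile 8.97. Among genes with a promoter peak in both lists Taf4a stood 26.7 percentile points lower at 1 week, and 14.9 points lower by fold. The call was in WT alone under each of 4 alternatives, namely a -log10 q of at least 3, a -log10 q of at least 5, lists of equal number, and the 1 week list scaled to the WT background. The surroundings of Taf4a were GC-rich, at 50.1% over 1 Mb, and of the genes in its class of GC content and WT rank, described below, 33.6% had no promoter peak at 1 week. A promoter peak does not show whether the floxed part of the gene was deleted, so this call is no check of the genotype.

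Fewer promoters were open at 1 week than in WT, although the 1 week list was the longer one. Of 21410 protein-coding genes, 12793 carried a promoter peak in the WT list and 11992 in the 1 week list. WT peaks were missing at 1 week for 1889 genes, 14.8% of those with one (Wilson 95% interval 14.2 to 15.4), and 1670 of these WT peaks were touched by no 1 week peak at all. In the other direction 1088 genes, 12.6% of the 8617 without a WT promoter peak (11.9 to 13.3), had one at 1 week alone. The intervals cover the counting of genes only. Under a -log10 q of at least 5 the genes with a lost peak numbered 3786, and in lists of equal number the gained ones numbered 406, and the net change, -801 genes in the full lists, was larger there. With a window of 2000 bp before to 500 bp after the start it was smaller, at -532 genes.

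Strong promoters were kept and changed places. Among 10904 genes with a promoter peak in both lists, the rank was lower at 1 week by 25 points or more for 2034 (18.7%) and higher by as much for 2002 (18.4%). Of the 100 strongest promoters of each list 17 were the same genes, of the 1000 strongest 349, and of the 5000 strongest 3156. In WT 80.9% of the 1000 strongest peaks lay at a promoter, against 43.8% at 1 week.

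**Figure D1:**
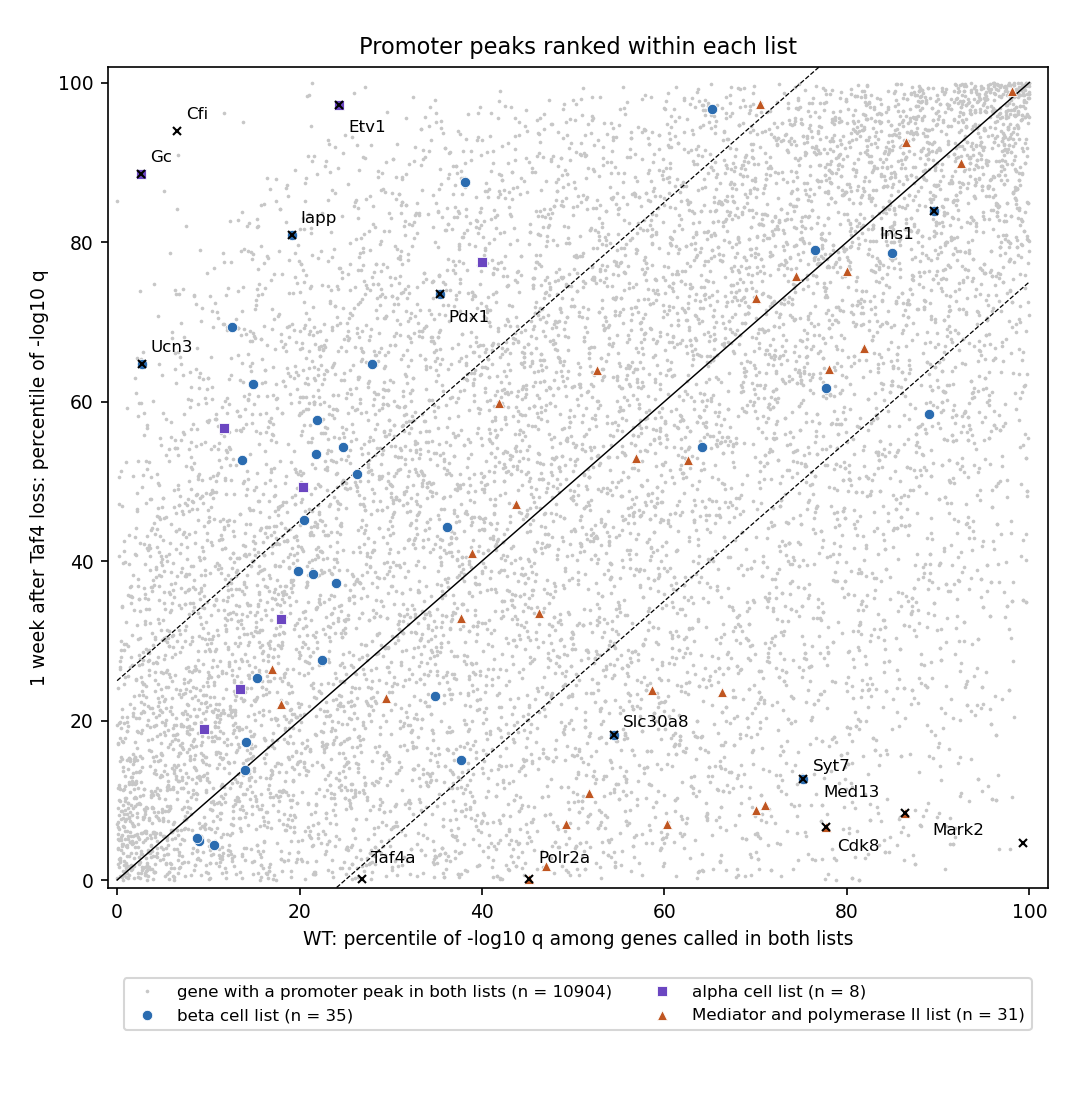
Rank of the promoter peak in WT (horizontal) and at 1 week (vertical), as a percentile of the -log10 q among the 10904 genes with a peak in both lists. The solid line marks equal rank, the dashed lines 25 points of shift, and crosses mark labelled genes. Gc and Cfi lie at the upper left, Mark2 at the lower right, and the 35 beta cell genes mostly above the line.

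Which promoters lost their peak went with base composition and with strength in WT. Genes were put into 5 classes of equal size by the GC content of the surrounding 1 Mb. In the poorest class 2.11% of the WT promoter peaks were missing at 1 week, and in the richest 29.9%. Gains ran the other way, from 19.6% of genes without a WT peak in the poorest class to 3.64% in the richest. Of 5 equal classes of WT promoter peaks by strength, the weakest was missing for 37.2% of genes and the strongest for 2.23%. Promoters rich in CpG lost 10.2% of their peaks and those poor in CpG 17.3%. Rich meant an observed over expected CpG ratio of at least 0.6 and at least 50% GC over the whole window of the outermost start. Only 4830 of the 21410 genes passed, and Rpl22, Eif4b and Cpsf1, named below, counted as poor, so the classes do not divide promoters by CpG island. Genes with the letters TATAAA from 20 to 40 bp upstream, the classical contact of the TATA-binding protein, lost 19.8% (38 of 192; 14.8 to 26.0), against 14.7% without. Promoters with an opposite start within 1 kb lost 12.6% and single ones 15.2%. Because GC content and WT rank moved with the calls, each gene list is set beside a number by like genes. For losses, every member with a WT peak is given the loss share of all genes in its own classes of both. Gains used genes without a WT peak, with the gain share of their class of GC content and of CpG, rich or poor. For rank shifts the classes were those of losses, among genes called in both lists. The part of base composition in the calls was not tested.

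**Figure D2:**
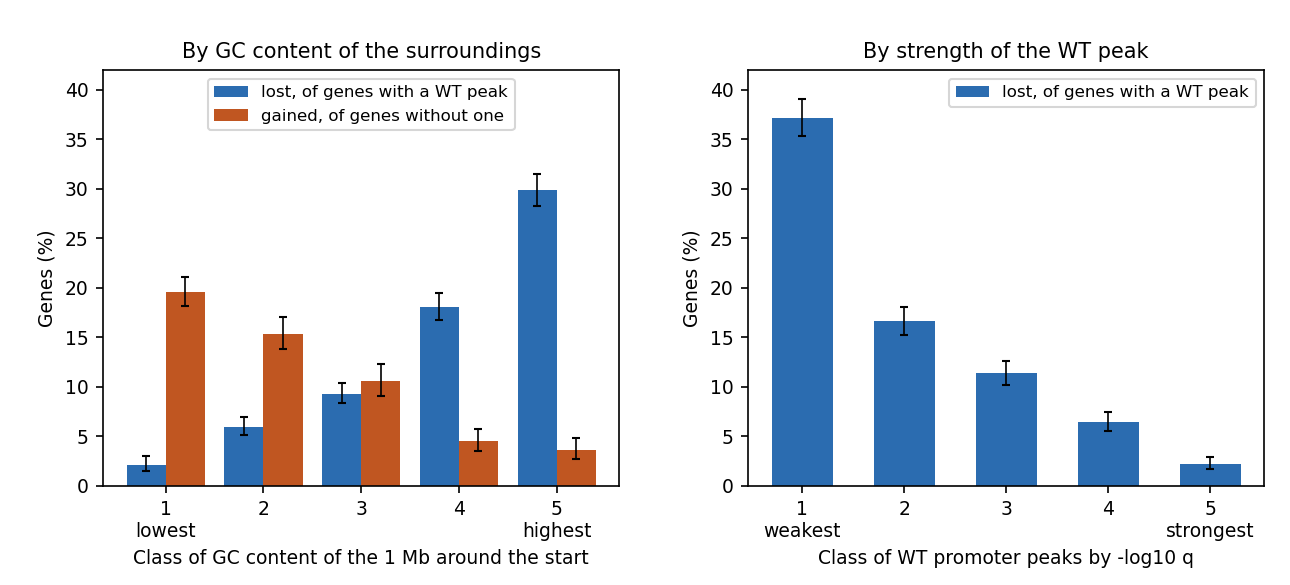
Share of genes (%) with a promoter peak lost (blue) or gained (orange) at 1 week, by class of GC content of the surrounding 1 Mb (left) and, for losses, by class of WT peak strength (right). Bars are shares and whiskers Wilson 95% intervals; losses go from 2.11% to 29.9% over the GC classes while gains go from 19.6% to 3.64%.

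The strongest promoter peaks that were present in WT and absent at 1 week lay in large part in GC-rich surroundings. Mrpl45, a mitochondrial ribosomal protein gene, had a WT -log10 q of 31.6, at the 99.4 percentile. Cpsf1, of the complex that cleaves the ends of pre-mRNA, had 28.9, Wdr18, of ribosome assembly, 27.8, and Eif4b, a translation initiation factor, 26.3. These were followed by Gpn3 at 26.2, which helps to assemble RNA polymerase II, Man1b1, a mannosidase of the secretory pathway, at 25.7, and Rhot1, which moves mitochondria, at 24.95. The last 3 of the 10 were the ribosomal protein gene Rpl22 at 24.3, the SUMO ligase gene Pias4 at 23.7 and the ubiquitin ligase gene Ubr4, with its peak at an internal start, at 23.5. All 10 were in WT alone under the 4 alternatives too, and 8 of the 10 lay in the GC-richest class.

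The strongest promoter peaks at 1 week alone were of other kinds. Zfand6 led with a -log10 q of 24.4, followed by Zmat4 at an internal start with 13.0. C4bp, which encodes a complement regulator, had 12.1, Olig1, a factor of the oligodendrocyte lineage, 11.8, and H2-Q6, of the major histocompatibility complex, also 11.8. Cntnap5b had 9.80, Rassf9 9.0, the membrane protein gene Ano3 8.88 and Akap2 8.72. The 10 strongest all kept this call in the 4 alternatives. Of these promoters Zfand6, Cntnap5b, Rassf9 and Ano3 lay in the GC-poorest class, while H2-Q6 lay in the richest. H2-Q6 has near-identical neighbours in its family, so its peak rests on the reads that the authors could map to a unique place.

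The widest changes of rank among genes called in both lists went both ways. Cfi, complement factor I, went from a -log10 q of 3.41 in WT to 18.3 at 1 week, 87.4 points up. Gc, the vitamin D binding protein that alpha cells express, went from 2.29 to 14.8, 85.9 points up. Aldh1a1, a retinaldehyde dehydrogenase, went from 4.86 to 21.0, the glycine receptor gene Glrb was 84.3 points up and the phosphodiesterase gene Pde11a 81.3. Ndst1 was 85.1 points up, but its WT and 1 week peaks lay at different starts. Downward, the kinase gene Mark2 went from 37.4 to 2.06, a shift of -94.7 points, and Ythdf2, a reader of methylated mRNA, from 33.1 to 1.97, a shift of -93.9. The kinase gene Cdk11b shifted by -92.9 points, Ogfod2 by -89.4, the splicing helicase gene Dhx8 by -87.7 and Cdc27, of the anaphase-promoting complex, by -87.1. All 12 had the same direction when ranked by fold.

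Beta cell promoters largely stayed open. Of 43 members, 39 were called in WT and 35 at 1 week, with 4 lost where the shares of like genes gave 6.52, and with none gained. Chgb, a granule protein gene, was the strong one among those lost, with a WT -log10 q of 11.5. It had no 1 week promoter peak in the full lists or in any of the 4 alternatives. In the full lists, however, a 1 week peak outside the promoter window touched a WT promoter peak of Chgb. Foxa1 had 1.37 in WT, Slc2a2 2.15 and Abcc8, the sulphonylurea receptor, 2.13, all weak peaks that the stricter q settings removed from WT as well. Nkx2-2, Kcnj11, Cacna1d and Trpm5 had no promoter peak in either list.

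The insulin promoters held their place in rank at 1 week, and that of Iapp stood higher. Ins1 had a -log10 q of 25.3 in WT and 13.0 at 1 week, a shift of -5.64 points among genes called in both lists. Ins2 had 5.49 and 3.05, a shift of -0.21. Iapp, which encodes amylin, went from 6.80 to 12.2, 61.7 points up.

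Factors of beta cell identity mostly ranked higher at 1 week. Pdx1 had a -log10 q of 10.3 in both lists, 38.1 points up in rank. Hnf4a went from 10.8 to 14.4, 49.4 points up, Mnx1 was 31.6 and Rfx6 29.5 points up, Mafa 24.7, Nkx6-1 24.6, Neurod1 9.98 and Pax6 2.57. Isl1, with a shift of -16.0, was lower, and so was Foxa2, with -22.6, which by fold was -0.14.

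Genes of hormone secretion went both ways. Ucn3, a marker of mature beta cells, was 62.0 points up, the granule protein gene Ptprn2 56.8 with WT and 1 week peaks that did not overlap, the prolactin receptor gene Prlr 47.4, the incretin receptor gene Glp1r 38.9, the fatty acid receptor gene Ffar1 36.8 and the prohormone convertase gene Pcsk1 35.7. Lower were Syt7, a calcium sensor of exocytosis, from 19.6 to 2.94 (a shift of -62.6), Slc30a8, the zinc transporter of the granule, from 14.2 to 3.47 (-36.3), and G6pc2, the islet glucose-6-phosphatase, from 25.1 to 7.83 (-30.6). In all 12 of 35 were up by 25 points or more, where like genes gave 10.2, and 3 were down, where like genes gave 3.23. The median shift was 9.98 against 1.56 over all genes called in both lists. The 35 genes were weaker in WT, however, with a median percentile of 74.2 against 87.3. In the class of WT strength with a median percentile of 74.5, the median shift was 15.1.

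Alpha cell promoters had a higher median rank at 1 week, with few members measured. Of 13 members 9 were called in WT and 10 at 1 week. Gcg was called at 1 week alone, with a -log10 q of 4.96 at the 82.8 percentile, and this held in 3 of the 4 alternatives. Ldb2 was gained with 3.83. Irx1, an alpha cell homeodomain factor, was lost with a WT value of 2.30, though a 1 week peak outside the promoter window touched it. Thus 2 genes were gained where like genes gave 0.555, and 1 was lost where like genes gave 1.02. Of the 8 members called in both lists 5 were up by 25 points or more, near the 3.63 by like genes, and none was down. The median shift was 33.2 points. Over all genes called in both lists, the classes of GC content and WT rank of these 8 members had median shifts from 11.4 to 39.2.

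Beside Gc, Etv1 went from a -log10 q of 8.0 to 22.3, 72.9 points up, but its WT and 1 week peaks did not overlap, so the shift compares different sites. Ttr, transthyretin, was 44.9 points up, the amino acid transporter gene Slc7a2 37.5 and Peg3 28.9. All these directions were the same by fold. Dpp10, 10.5 points up by -log10 q, was the exception, at -18.2 by fold. Gcg lay in surroundings poor in GC, like many gained promoters. Of 11 delta cell genes 7 were called in WT and 9 at 1 week, where like genes gave 0.592 gains. The added ones were Sst, with a -log10 q of 1.41, and Lepr, with 1.56. Both were absent from all 4 alternatives, in which 4, 2, 6 and 6 delta cell promoters were called at 1 week against 7, 3, 7 and 7 in WT. Ghrl, of epsilon cells, was gained with 3.97, where like genes gave 0.29 for its list.

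**Figure D3:**
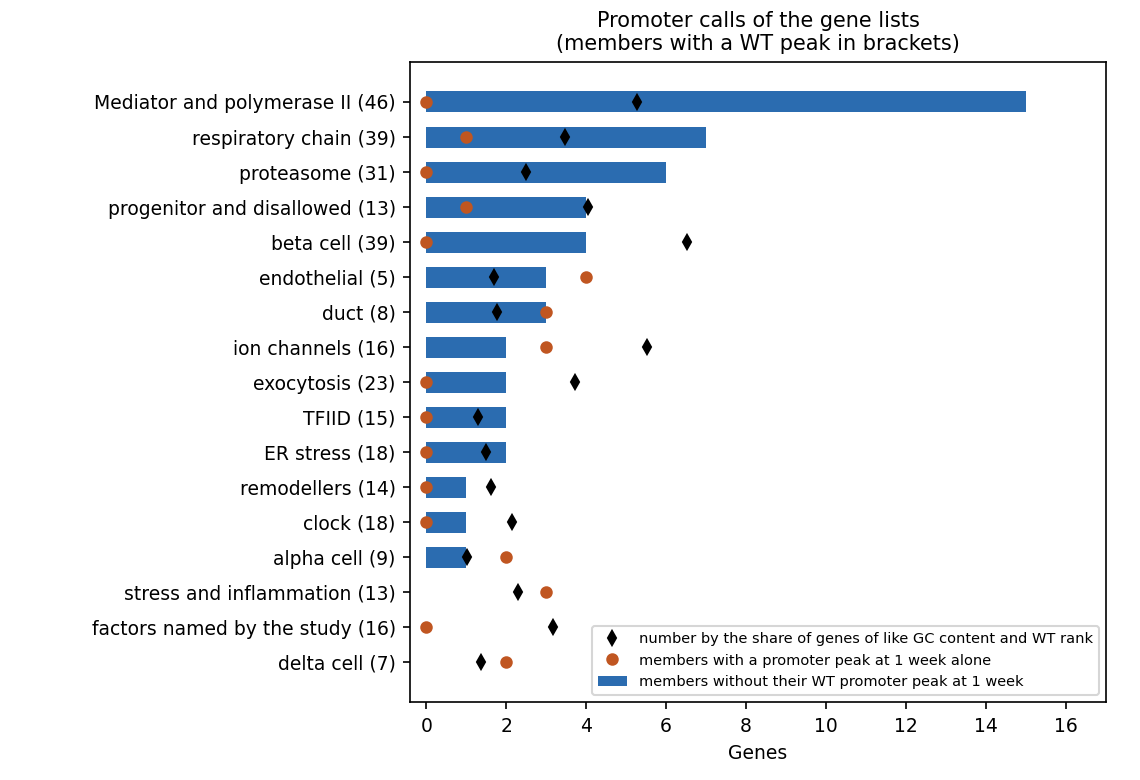
Promoter calls in each gene list with at least 5 WT promoter peaks (number of members in brackets). Bars count genes whose WT promoter peak was missing at 1 week, diamonds give the number by the share of genes of like GC content and WT rank, and orange points count genes called at 1 week alone; Mediator and polymerase II genes reach 15 against 5.27.

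Among the lists, that of Mediator and polymerase II genes had the most missing promoter peaks in number. The acinar, duct, endothelial, and Schwann and neural lists, with 2 to 8 WT peaks each, had higher shares than its 32.6%. Of 15 TFIID genes all had a WT promoter peak and 13 a 1 week one, where like genes gave 1.28 losses. The 1 week promoter peaks of Taf5 (WT -log10 q 16.7) and Taf9 (19.9) were missing in all alternatives. In the full lists a 1 week peak outside the promoter window touched a WT promoter peak of Taf5, and none touched that of Taf9. The lost share of TFIID genes, 13.3%, was below the 14.8% over all genes. Taf7 was 64.2 points lower among genes called in both lists, Taf11 38.7 and Taf8 30.1 lower, while Taf10 was 49.7 and Tbp, the TATA-binding protein gene, 27.2 points higher. Taf4b, the paralogue, had 23.3 in WT and 18.5 at 1 week, 8.68 points up. Of 46 genes for RNA polymerase II, its general factors and Mediator, the complex that links activators to the polymerase, all had a WT peak, and 15 had none at 1 week, where like genes gave 5.27.

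The 15 genes were spread over the machinery. Polymerase subunit genes were Polr2e, with a WT -log10 q of 21.1, Polr2j with 17.5, Polr2f with 17.1, Polr2k with 11.3, Polr2c with 8.57 and Polr2l with 5.72. Of TFIIH, the helicase factor, Gtf2h3 (16.96), Gtf2h1 (13.0) and Gtf2h2 (4.89) were missing. Of Mediator, Med6 (16.9), Med4 (16.4), Med18 (14.3), Med27 (10.5), Med25 (6.59) and Med16 (6.0) were missing. Polr2a, the largest subunit, kept a weak peak, going from 12.3 to 1.30, and Med13 went from 23.7 to 2.52 and Cdk8 from 20.3 to 2.35. Only Ccnc, the cyclin of Cdk8, was up by 25 points or more, with 26.8 by -log10 q and 11.8 by fold. Losses numbered 24, 30, 17 and 17 in the 4 alternatives. This list was drawn up with earlier results of these data known, so its count is a description.

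Energy and protein turnover genes also had more missing promoter peaks than like genes gave. Of 41 respiratory chain genes 39 had a WT peak and 33 a 1 week peak. The 7 without one were Ndufs7 (16.9), Ndufs1 (11.4), Ndufa9 (10.7) and Ndufb10 (9.29) of complex I, Cox6a1 (13.2) and Cox6c (9.81) of cytochrome oxidase, and Atp5a1 (13.3) of the ATP synthase, where like genes gave 3.47. Atp5f1 was gained with 4.12, where like genes gave 0.19. In rank 14 of 32 were lower by 25 points or more, where like genes gave 8.87, among them Cox5a at -78.0, with a median shift of -18.2 points. Of 31 proteasome genes 6 had no 1 week peak, namely Psmd3 (21.8), Psmd2 (20.5), Psmd12 (17.3), Psmb6 (9.59), Psmc1 (9.55) and Psmb5 (9.21), where like genes gave 2.49.

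Stress genes mostly kept their promoter peaks. Of 18 genes of the endoplasmic reticulum stress response 16 kept their promoter peak, and Atf6 (9.01) and Ern1 (17.1), which encode sensors of unfolded protein, did not, where like genes gave 1.48. A 1 week peak outside the promoter window touched a WT promoter peak of Ern1. The chaperone gene Hspa5 had a -log10 q of 31.6 in WT and 30.1 at 1 week, Xbp1 was 57.3 points up, Sdf2l1 38.1, Atf4 32.8 and Trib3 25.1, and none was down by 25 points. Like genes gave 1.05 up and 4.29 down by 25 points or more. Of 30 stress and inflammation genes 13 were called in WT and 16 at 1 week, where like genes gave 1.94 gains. Cxcl12 (3.24), Cxcl2 (2.11) and Reg3g (1.65) were added, of which Cxcl2 and Reg3g were absent from all alternatives. A WT peak outside the promoter window touched a 1 week promoter peak of Cxcl12. All 16 factors named by the study, among them Yy1, Nrf1, Arnt2, Bhlhe41, Myc and Mycn, had a promoter peak in both lists, where like genes gave 3.16 losses. Losses among these factors numbered 4, 9, 1 and 1 in the 4 alternatives, with 2 gains at a -log10 q of at least 5. By -log10 q 10 of the 16 ranked lower at 1 week, and the median shift was -11.2 points. By fold only Yy1 (-13.8), Nrf1 (-6.07), Tcf4 (-25.3) and Tcf12 (-14.3) ranked lower, and the others ranked higher. Past 25 points by -log10 q were Atf5 (56.0), Foxp1 (39.4), Arnt2 (35.1) and Mycn (28.2) upward, where like genes gave 3.94, and Yy1 (-39.4) downward, where like genes gave 1.78. By fold Arnt2 (23.1) and Mycn (17.9) stayed under 25 points. The study chose some of these factors on the same libraries, and their direction is no independent evidence.

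The remaining lists had few changed calls. Of 18 clock genes Hlf lost its peak, where like genes gave 2.14, and of 14 remodeller genes with a WT peak Bptf, the NuRF subunit, did, where like genes gave 1.61. Of 23 exocytosis genes with a WT peak Vamp2 and Stx1a, which take part in the fusion of granules with the membrane, had no 1 week peak, where like genes gave 3.71. Among ion channel genes 2 were lost, among them Cacna1h, where like genes gave 5.52, and Kcnd2, Kcnh6 and Ano1 were gained, where like genes gave 1.15. Of the progenitor and disallowed genes, which beta cells keep low, Sox9, Aldh1a3, Mgst1 and Igfbp4 were lost, where like genes gave 4.05. Ldha was gained, where like genes gave 0.19.

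Away from promoters the lists differed most. The WT list had 47116 distal peaks and the 1 week list 126301, or 2.68 times as many, while promoter peaks numbered 12510 and 11828. WT distal peaks without a 1 week peak numbered 21091, 44.8% of them, and 1 week distal peaks without a WT peak 100142, 79.3%. Intergenic peaks went from 20306 to 83738, intronic ones from 23719 to 39345 and exonic ones from 3091 to 3218. The added peaks were weak, and in lists of equal number the ratio was 1.05. The overlap of WT distal peaks followed strength, from 18.4% in the weakest of 10 equal classes of the WT list to 97.7% in the strongest.

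The added peaks lay far from genes and in GC-poor sequence. Within 5 to 20 kb of a start the 1 week list had 1.24 times the WT number, from 100 to 500 kb 5.55 times, and beyond 500 kb 27.1 times (19233 against 710). In the GC-poorest class of WT distal peaks the ratio was 9.35 and in the richest 0.469, so GC-rich regions had fewer peaks at 1 week. WT distal peaks were overlapped for 76.1% in the poorest and 36.8% in the richest class. Chromosome 19 held fewer peaks at 1 week (0.672 times) and chromosome 11 about as many (1.01 times), while chromosome 3 held 4.07 times the WT number. On chromosome 11 70.7% of WT promoter peaks and 38.2% of WT distal peaks were overlapped, and on chromosome 3 92.7% and 68.4%.

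**Figure D4:**
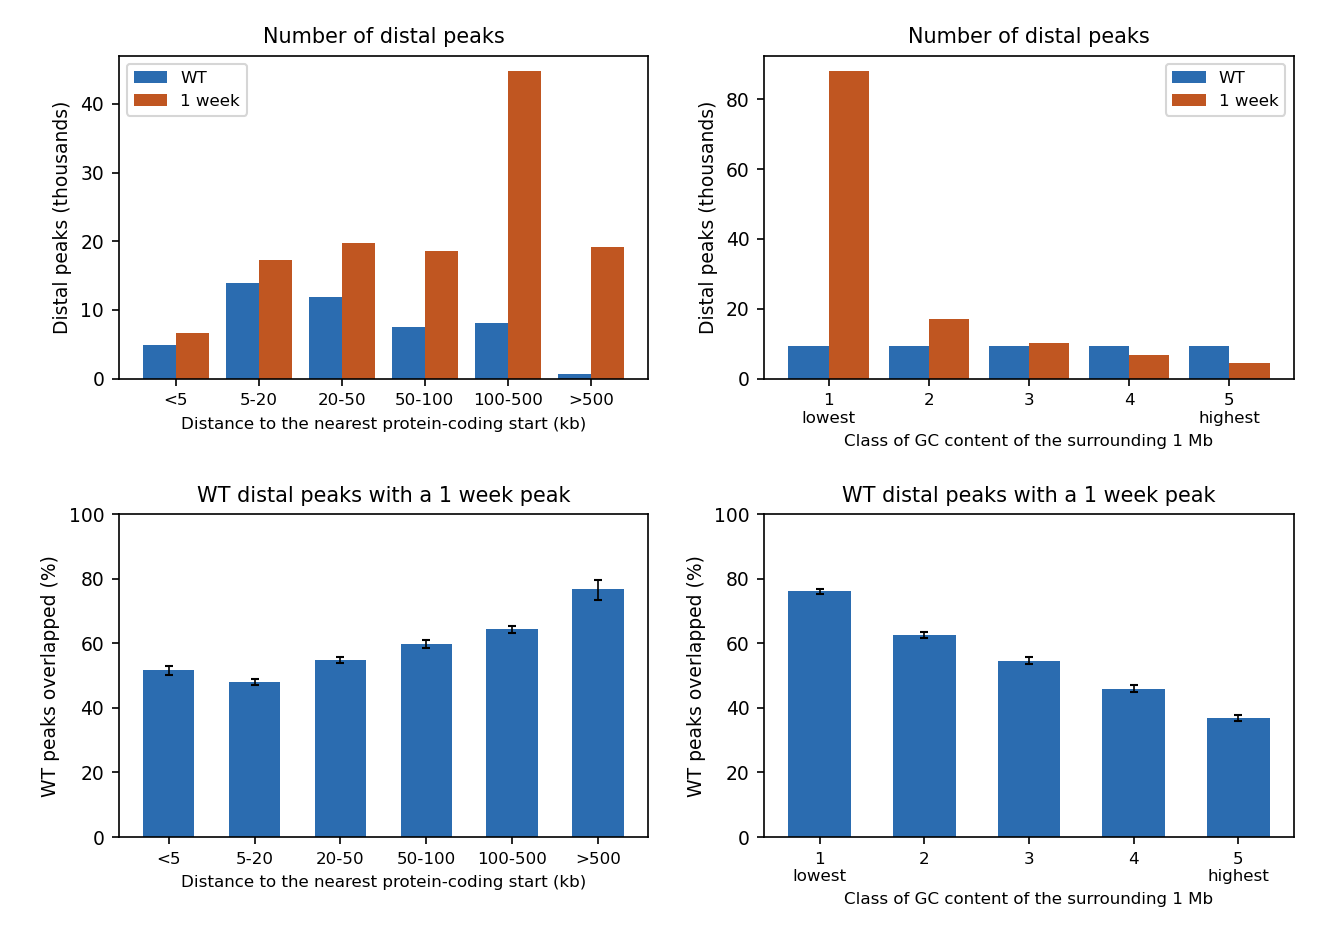
Distal peaks in WT (blue) and at 1 week (orange), in units of 1000 peaks, and the share of WT distal peaks overlapped at 1 week (%, whiskers Wilson 95% intervals), by distance to the nearest protein-coding start in kb (left) and by class of GC content (right). The 1 week surplus sits beyond 100 kb and in the GC-poorest class, where overlap of WT peaks reaches 76.1%.

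Distal peaks were overlapped less often near genes that lost their promoter peak, except in the GC-poorest class. Each distal peak was given to the nearest protein-coding start within 100 kb, which assigned 38344 WT peaks, of which 18056 (47.1%) had no 1 week peak. Near genes that kept their promoter peak 55.1% of WT distal peaks were overlapped at 1 week, near genes that lost it 38.1% (36.4 to 39.9), and near genes that gained one 68.1%. Within the GC-richest class the shares were 40.2% and 30.6% for genes that kept and lost the promoter peak, and in the poorest 74.0% and 78.3% (64.4 to 87.7). Genes that gained a promoter peak had 1.17 distal peaks each in WT and 7.57 at 1 week. Their median GC content was 40.97%, and genes of the GC-poorest class that kept their promoter peak had 1.71 and 7.75, so this rise was not particular to gained promoters.

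Some genes lost every WT distal peak assigned to them. Capzb, of the actin capping protein, had 9 in WT, 2 at 1 week and none shared, and Mapre3, which binds microtubule ends, had 9 and 1 with none shared. Pax2, Prex1 and Sdc3 had 9 in WT and none at 1 week. Cebpb, a stress-responsive bZIP factor, and Prkca, a protein kinase C, had 8 in WT and none at 1 week, and Micall2 had 8 and 1 with none shared. The promoters of Capzb, Mapre3, Prex1, Sdc3, Cebpb and Prkca stayed open. Of the 8 genes Prkca, at 43.3% GC, was outside the GC-richest class. Its total loss ended with peaks assigned by the gene body or 10 kb around it, where 32.3% of its WT distal peaks were overlapped, while the other 7 genes stayed at 0%.

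Other genes kept theirs in number. Maml3, a Notch coactivator, had 38 WT distal peaks, of which 24 were overlapped, Arhgap26 22 of 32, Tspan5 21 of 27 and Rere 20 of 37. Sfi1 kept 20 of 21, Tbc1d1 19 of 26, Kalrn 18 of 30 and Odz4 18 of 20. With peaks assigned by the gene body or 10 kb around it, Sfi1 kept 95.2% and Odz4 71.4%. Peaks that no WT peak touched were most numerous at 8 genes, of which 6 lay in the GC-poorest class, while Nrxn3 and Nckap5 did not. Dlg2, a synaptic scaffold, had 98 of these, Lingo2 98, the neurexin gene Nrxn3 85, Rims1 82, Egfem1 78, the cadherin gene Cdh18 72, and March1 and Nckap5 62 each. In WT these genes had from 0 distal peaks (Lingo2, Rims1, Egfem1 and Cdh18) to 8 (Nrxn3).

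Distal peaks of islet genes were kept about as often as peaks of like GC content and rank. Of 298 WT distal peaks of the beta cell list 187 (62.8%; 57.1 to 68.0) were overlapped, where like peaks gave 180.3. Pax6 kept 12 of 16, Foxa2 11 of 14, Nkx6-1 9 of 12, Ptprn2 9 of 14, Pcsk2 8 of 14 and Slc2a2 9 of 11, although its promoter peak was missing. Kcnj11 kept 8 of 11 without a promoter peak in either list. Fewer remained at Prlr (6 of 12), Mafa (4 of 10), Glp1r (3 of 9) and Hnf4a (0 of 4). Alpha cell genes had 37 in WT and 76 at 1 week, with 23 shared, where like peaks gave 21.9. Ldb2 had none in WT and 16 at 1 week, Irx1 1 and 10, Gc 1 and 7, and Gcg 1 and 5. Delta cell genes had 21 and 38, with 14 shared, and Nrg3 had 3 and 12 of them.

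The strongest WT distal peaks without a counterpart lay mostly near GC-rich genes. The first was 9.25 kb upstream of Trpv4, a cation channel gene (chr5:115117422-115117937, -log10 q 27.5), with both E-box letters, a MAF site and an SP and KLF site. Others lay near Hnrnpa3 (25.7), Dync1h1 (25.7), Fdps (23.9), Slc39a11 (23.2), Xylt1 (22.7), Sgca (21.4), Foxk1 (21.2) and Clip4 (20.5). One was 8.06 kb upstream of Nr1d1, the clock repressor Rev-erb alpha (chr11:98644361-98645050, 25.4), and held CACGTG and MAF letters. At 1 week the strongest peaks without a WT counterpart were in an intron of Cdk8 (chr5:147071767-147073013, -log10 q 78.2, fold 11.5, the second strongest peak of the list) and in the intergenic region nearest to Axin2 (chr11:108872878-108873485, 65.2, fold 10.3, rank 5). Further ones lay near Orc4 (31.5), Kctd16 (26.3), Lphn3 (25.4), Gdi2 (25.1) and Hic2 (24.4). The named genes are the nearest starts, up to 351 kb away in the case of Slc39a11, and 3 further peaks of the 10 at 1 week lay nearest to genes with provisional symbols.

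Motif letters were counted in the 300 bp at the centre of each peak, on both strands, and the kept share of WT peaks with a motif was set beside that of peaks of like GC content and rank. The letters were TGANTCA for AP-1, TGACGTCA for the CRE, CACGTG and CAGATG for the E-boxes, TAATTA for homeodomain factors, TGTTTAC for FOXA, GTTGCCATG for RFX, TGCTGAC for MAF, CCGGAAG for ETS and GGGCGG for SP and KLF. CTCF, HNF1, NRF1 and YY1 were searched by their longer consensus. Matches can overlap, as TGCTGAC does with TGANTCA where one runs on into the other, and an HNF1 site can hold TAATTA. Of all distal windows of both lists, 27.4% held CAGATG, 10.9% AP-1, 7.71% homeodomain, 7.35% MAF, 5.93% FOXA, 4.41% SP and KLF, 3.56% CACGTG, 1.31% ETS, 1.30% CTCF, 0.527% RFX, 0.226% CRE and 0.017% HNF1 letters. Of all promoter windows, 54.4% held SP and KLF, 12.5% CAGATG, 11.5% ETS, 7.05% CACGTG, 4.49% AP-1, 4.09% MAF, 2.01% FOXA, 1.79% homeodomain, 1.63% CRE, 1.10% YY1 and 0.969% NRF1 letters. Promoter windows were thus rich in SP, KLF and ETS letters and distal ones in CAGATG, AP-1 and homeodomain letters. A match is a description and not a bound site.

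Distal CTCF and AP-1 matches were kept less often than like peaks. Of 1456 WT distal peaks with CTCF letters 616 (42.3%; 39.8 to 44.9) were overlapped, against 57.1% by like peaks. Of 6493 with AP-1 letters 3412 (52.5%; 51.3 to 53.8) were overlapped, against 60.2%. The CACGTG E-box had 52.9% (51.1 to 54.8) against 56.1%. Homeodomain letters went the other way, with 2446 of 3435 (71.2%; 69.7 to 72.7) against 64.2%, and so did FOXA, with 2583 of 3794 (68.1%; 66.6 to 69.5) against 63.9%, and SP and KLF, with 62.9% against 58.6%. All 13 distal peaks with HNF1 letters were overlapped (77.2 to 100%), where like peaks gave 76.9%, and 2 of them, at Psd3 and Prlr, are printed above. Letters of ETS (57.8 against 57.9%), CAGATG (56.4 against 56.8%), MAF (55.9 against 56.8%), RFX (60.6 against 60.4%) and the CRE (63.2 against 63.4%) lay within 1 point of like peaks.

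At promoters the order was another one. YY1 letters were in 149 WT promoter peaks, of which 117 (78.5%; 71.3 to 84.4) were overlapped, against 90.1% by like peaks. Wdr18 and Dot1l were among those lost. ETS letters had 1316 of 1543 (85.3%; 83.4 to 87.0) against 90.2%, and the CRE 178 of 219 (81.3%; 75.6 to 85.9) against 89.0%. CACGTG letters had 760 of 922 (82.4%; 79.8 to 84.7) against 85.5%. NRF1 letters had 93.2% against 93.0% and SP and KLF letters 88.4% against 87.3%. For CTCF, AP-1 and CACGTG letters among distal peaks and for YY1, ETS, CRE and CACGTG letters at promoters, the interval of the kept share lay below the share by like peaks, and for homeodomain, FOXA, HNF1 and SP and KLF letters among distal peaks and SP and KLF letters at promoters it lay above.

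**Figure D5:**
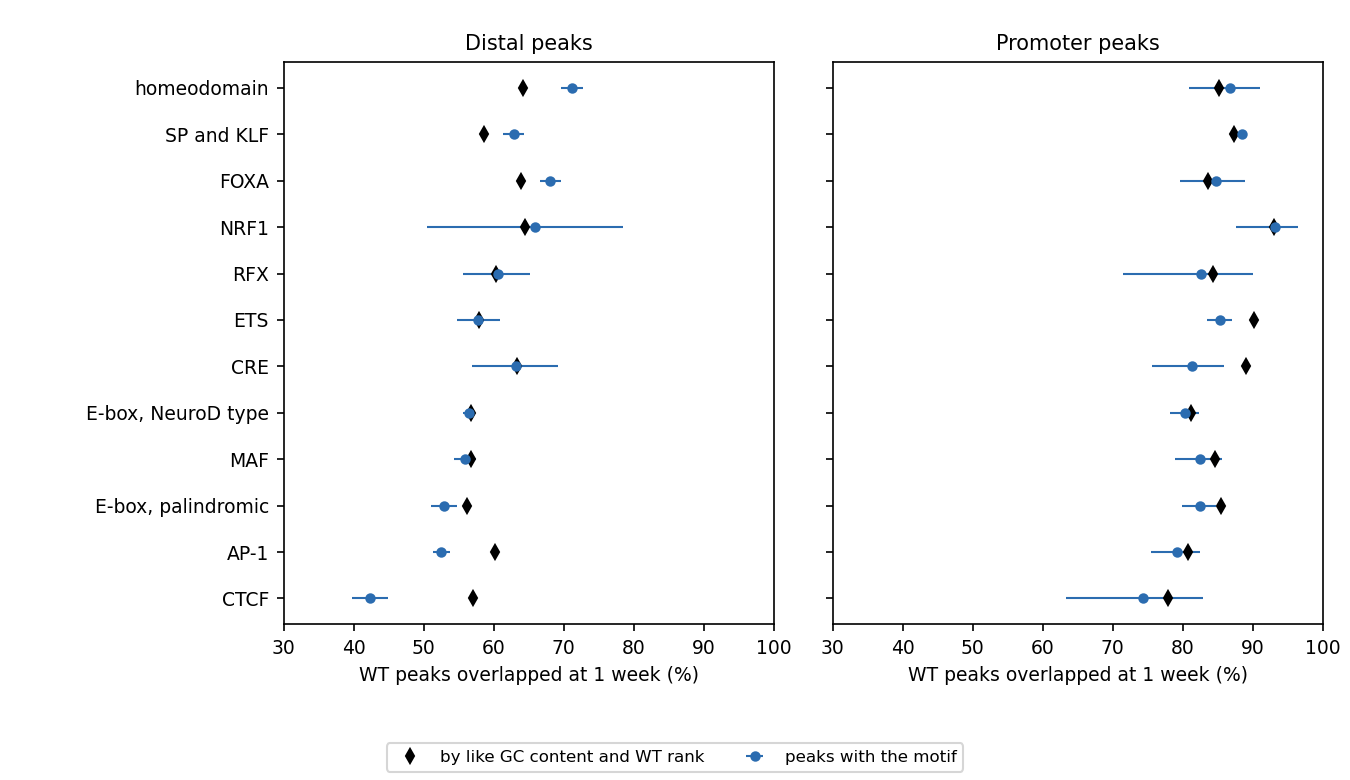
Share of WT peaks overlapped at 1 week (%) for distal (left) and promoter (right) peaks with each motif. Points are peaks with the motif, lines Wilson 95% intervals and diamonds the share by peaks of like GC content and WT rank; the axis starts at 30%. Distal CTCF lies at 42.3% against 57.1% and homeodomain at 71.2% against 64.2%; motifs in fewer than 30 WT distal peaks (HNF1, YY1) are left out.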

How the data were processed

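ATAC-seq libraries of islet cells, 1 per group, were grouped by the genotype and time labels, and 2 of the 3 peak lists of the series were used. The submitters' processing notes name bcl2fastq 2.17.1.14, Bowtie 1.0.0, MACS2 2.1.1 and mm9. Per the study's methods the authors mapped reads to unique places with Bowtie and called peaks with MACS2. Duplicate removal, insertion shift and a control are not given in the sources used here. The deposited lists hold the fold over local background (a ratio), the -log10 p-value, the -log10 q-value and a whole-number score, which was not used. Values are the authors' own means per peak.

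Python 3.11.15, pandas 2.3.3, scipy 1.17.1 and samtools 1.23.1 were used with the mm9 genome and its GENCODE annotation, with 44018 starts. Promoters were 1000 bp upstream to 100 bp downstream, overlap was 1 bp, and 5 classes each of GC content over 1 Mb and of WT rank defined like genes or peaks. For gained promoter calls, like genes were defined by the class of GC content and the CpG class instead. Depth was the first percentile of the background solved from fold and p. The scripts were tested on simulated data. Members, gene lists (22, with 455 of 475 symbols matched) and named genes (by a rule on list membership, strength and shift) were chosen with earlier results of these data known. Some of these genes are not reported here. Alternatives were a -log10 q of at least 3 or 5, equal numbers, scaled depth, a wider window, a reciprocal overlap of 50%, ranking by fold, and assignment by gene body. Mitochondrial, X and Y peaks were not used in the comparisons.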

Additional observations from a re-analysis of the deposited data

Results flagged for a closer look

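Peaks on chromosome X were outside the comparisons. The 1 week list held 12225 of them, 8.13% of its peaks, against 1272 (2.09%) in WT and 1451 (0.956%) in the list of Taf4 KO mice at 5 weeks. In the GC-poorest of 5 classes of 1 Mb bins the 1 week list had 86.2 peaks per Mb on X and 85.8 on chromosomes 1 to 19. In the same class the WT list had 2.05 and 3.68, and the 5 week list 2.97 and 47.9. Chromosome Y had 0 peaks in WT, 0 at 1 week and 44 at 5 weeks. The labels give no sex, and the origin of these differences was not tested.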

How the results depend on the processing

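Without replicates no result here has a spread between animals, and depth, base composition and genotype cannot be told apart. No paired analysis was possible because each group had 1 library. The genes with a lost promoter peak numbered from 1670 to 2612 under 5 alternatives and 3786 with peaks of a -log10 q under 5 left out. The gained ones numbered 530 without peaks of a -log10 q under 3, 493 without those under 5, 406 with equal list lengths and 407 with the 1 week depth scaled to WT. They numbered 1443 with the wider window and 961 where no overlap anywhere was asked, against 1088. In the order of the first 4 settings the share of WT distal peaks overlapped at 1 week was 66.8%, 62.7%, 48.2% and 48.3%, and 38.9% with a reciprocal overlap of 50%, and the ratio of distal peaks was 1.39, 1.21, 1.05 and 1.05. The median percentile of promoter peaks within the whole list, higher by 1.51 points at 1 week, was 5.40 by fold but turned to -6.46, -10.8 and -7.85 points in the first 3 settings. The beta cell list had a net change of -4 genes, then -4, -8, -7 and -7, the alpha cell list of 1, then 3, 0, 1 and 1, and the delta cell list of 2, then -3, -1, -1 and -1. The cause was not tested. For single genes 45 alternative values were rank shifts that stayed past 25 points in the same direction, or kept shares within the Wilson interval of the reported one, which is wide for few peaks. Among these the kept share of Prkca went from 0% to 32.3% and that of March1 from 100% to 50% by gene body. Beside them the shift of Taf4a moved from -26.7 to -14.9 points by fold.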
